A study of Mus musculus with 4 samples.

Results

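The genes described here are 9 genes of red blood cells, chosen by name among the 35275 genes of the deposited table. They are the adult alpha globins Hba-a1 and Hba-a2, the adult beta globins Hbb-bs and Hbb-bt, the heme synthesis enzyme gene Alas2, the transcription factor genes Klf1 and Gata1, and the membrane protein genes Slc4a1 and Sptb. They were measured in 4 RNA-seq libraries of T cells from mouse spleen, kept for 3 days in culture with antibodies to CD3 and CD28 and with IL-2. The mice were C57BL/6, and there was 1 library for each group: Cers6 knockout at 8 months, Cers6 knockout at 2 months, wild type at 8 months and wild type at 2 months. Cers6 encodes ceramide synthase 6, which makes ceramides with a palmitoyl chain. Which part of Cers6 is deleted, the sex of the mice and whether mice were pooled are not stated in the labels.

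Hemoglobin is a tetramer of alpha and beta globin chains that each carry a heme. Maturing erythroblasts fill with globin messenger RNA under the control of GATA1, which binds GATA sequences, and KLF1, which binds CACCC boxes. The reticulocyte keeps much of this RNA after it has lost its nucleus. The spectrin skeleton beneath the membrane is tied to band 3, the anion exchanger, through ankyrin. The mouse spleen holds many red cells and can itself make them, whereas T cells are not known to make hemoglobin.

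The promoters of the globins and of Sptb are shown because the globins come in pairs of related sequence, of which the alpha pair is near-identical, and because the sequences carry the boxes that KLF1 is known to bind. Each is the 150 bases before the RefSeq start on GRCm38.p6, read 5′ to 3′ on the strand of the gene, with CACCC and GATAA on either strand in capitals. The windows are chr11:32283522-32283671 on the plus strand for Hba-a1, chr11:32296342-32296491 on the plus strand for Hba-a2, chr7:103827929-103828078 on the minus strand for Hbb-bs, chr7:103813924-103814073 on the minus strand for Hbb-bt and chr12:76710548-76710697 on the minus strand for Sptb.
Hba-a1: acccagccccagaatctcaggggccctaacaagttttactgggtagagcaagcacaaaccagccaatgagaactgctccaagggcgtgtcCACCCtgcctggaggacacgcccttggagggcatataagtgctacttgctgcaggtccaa
Hba-a2: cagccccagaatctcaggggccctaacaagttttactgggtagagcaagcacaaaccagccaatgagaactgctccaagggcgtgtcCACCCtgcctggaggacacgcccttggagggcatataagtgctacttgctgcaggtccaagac
Hbb-bs: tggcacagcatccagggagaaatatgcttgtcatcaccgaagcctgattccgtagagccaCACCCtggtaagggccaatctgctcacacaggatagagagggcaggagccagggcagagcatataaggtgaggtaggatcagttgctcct
Hbb-bt: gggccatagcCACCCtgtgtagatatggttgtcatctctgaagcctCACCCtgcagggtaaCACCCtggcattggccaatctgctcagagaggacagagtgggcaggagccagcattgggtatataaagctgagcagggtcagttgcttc
Sptb: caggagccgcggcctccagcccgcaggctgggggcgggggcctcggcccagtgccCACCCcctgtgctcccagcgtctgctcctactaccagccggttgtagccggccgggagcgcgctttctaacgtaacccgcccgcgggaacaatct
The alpha globin windows shared 147 bases with 0 mismatches, and they are the same stretch offset by 3 bases. The beta globin windows had 110 identical bases, an identity of 72.4% over the alignment, against 49.4% between Hba-a1 and Hbb-bs.

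Among the 8 of 9 genes with a RefSeq promoter, CACCC or its complement GGGTG stood in every window, and in 37.4% of all 32851 promoter windows of this length. CCAAT or its complement ATTGG stood in the 4 globin windows and that of Klf1, and in 24.5% of all windows. TATAAA or ATATAA, searched on the strand of the gene only, stood in the 4 globin windows and in no other of the 8, and in 6.67% of all windows. In Hba-a1 the CACCC nearest the start began at position -60, the CCAAT at -88 and the ATATAA at -28. GATAA or its complement TTATC stood in the windows of Alas2, at -86, and Klf1, at -80, and in 13.3% of all windows. No promoter was found for Slc4a1 in the table used. The deposited gene models begin upstream of the RefSeq start for every one of the 8 but Sptb, so that part or all of the window lies inside the model.

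The targeted gene was read first. Cers6 had 79 counts in the knockout library at 8 months and 158 in the knockout at 2 months, against 678 in the wild type at 8 months and 301 in the wild type at 2 months. Total counts ranged between 18145555 and 24239344. Levels are scaled CPM, a gene's share of the library's counts corrected with TMM factors, and the factor of the knockout library at 8 months, 1.15, stood apart from the other 3, which were 0.947 to 0.968. Scaled, Cers6 was at 3.38 CPM in the older and 9.17 CPM in the younger knockout, against 32.0 CPM in the older and 13.1 CPM in the younger wild type. The younger knockout library was thus the nearer of the pair to its wild type. Xist had at most 4 counts in 3 of the libraries and 10117 in the younger wild type. The older wild type library took 98.6% of its T cell receptor beta variable counts from Trbv14, against at most 8.98% from the leading segment of any other library. Markers of T cells were high in all libraries, and so were those of B cells: Cd3e was at 232.8 to 346.6 CPM and Cd79a, a B cell receptor subunit, at 321.4 to 964.3 CPM. With 1 library per group every ratio compares single libraries, and intervals are 95% and cover counting error only. In bulk RNA, fewer cells of a type and less RNA per cell cannot be told apart.

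All 4 adult globins were detected in every library at low levels. All were highest in the knockout library at 8 months, as were 34.3% of all genes with a count. Together they gave 1309 counts in the knockout at 8 months and 376 in the knockout at 2 months, against 753 in the wild type at 8 months and 349 in the wild type at 2 months. That was 56.0 CPM in the older knockout (53.0 to 59.1) and 21.8 in the younger (19.7 to 24.2), against 35.5 in the older wild type (33.0 to 38.2) and 15.2 in the younger (13.6 to 16.9). Globin RNA thus took between 0.00144% and 0.00643% of a library's counts. The intervals of the 4 libraries did not overlap. The older library of each genotype was above the younger one, and at each age the knockout was above the wild type. The summed level was 2.57 times as high at 8 as at 2 months in knockouts (2.29 to 2.89) and 2.34 times in wild type (2.06 to 2.66). The ratio of knockout to wild type was 1.58 at 8 months (1.44 to 1.73) and 1.44 at 2 months (1.24 to 1.67).

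**Figure D1:**
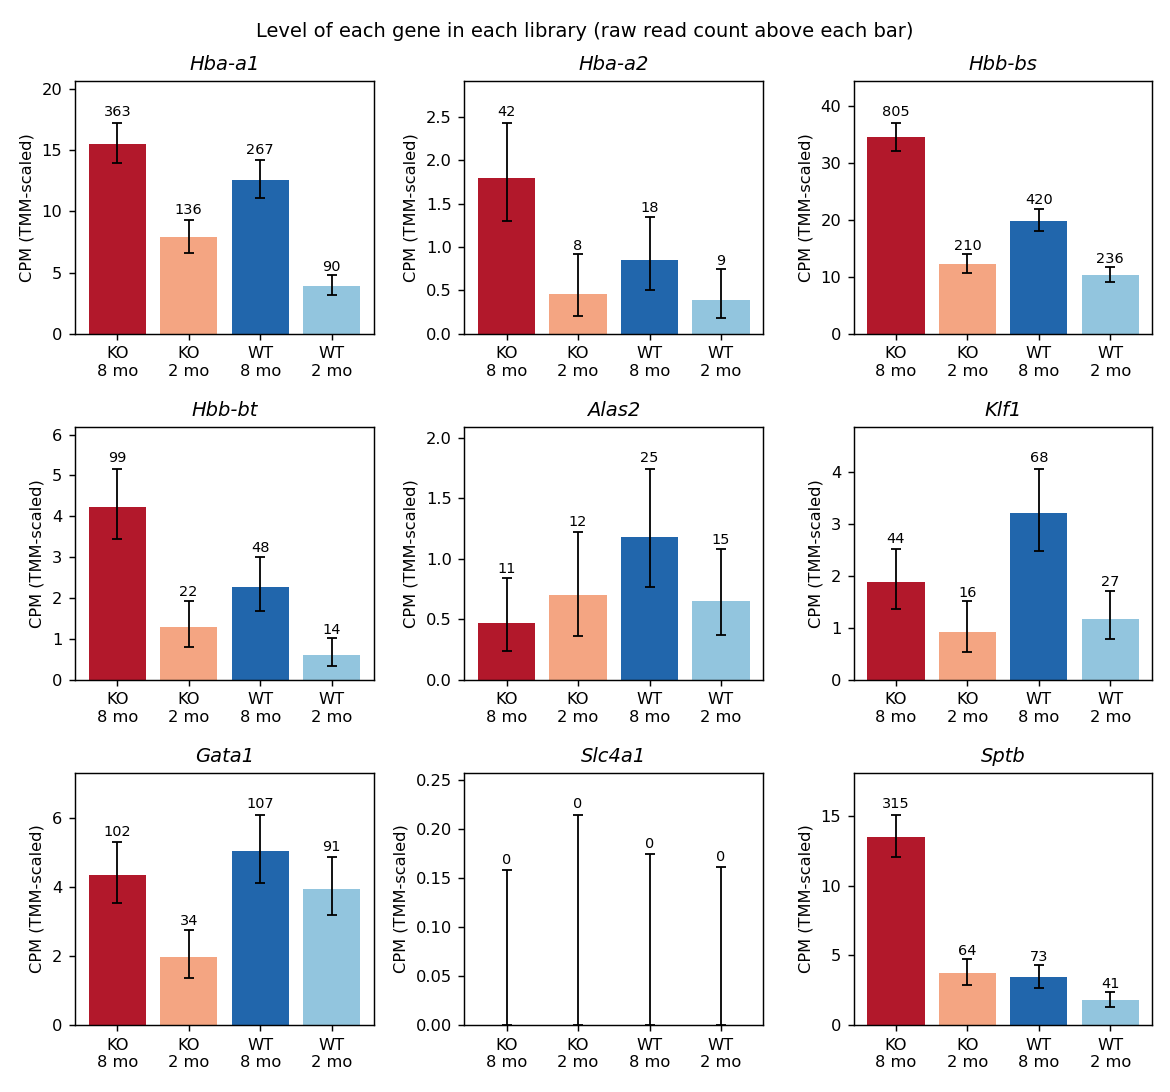
Scaled CPM of each of the 9 genes, 1 panel per gene with its own axis from 0; bars are single libraries, in the order knockout at 8 months, knockout at 2 months, then wild type at 8 months and at 2 months, error bars are exact 95% Poisson intervals and the number above each bar is the raw count. The 4 globins and Sptb are highest in the knockout at 8 months, Alas2, Klf1 and Gata1 in the wild type at 8 months, and Slc4a1 has 0 counts throughout.

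Hbb-bs, the more abundant beta globin (ENSMUSG00000052305, chromosome 7, 103826534 to 103828096 on GRCm38, minus strand), carried most of the globin counts. It had 805 counts in the knockout at 8 months and 210 in the knockout at 2 months, against 420 in the wild type at 8 months and 236 in the wild type at 2 months. Scaled, that was 34.5 CPM in the older knockout (32.1 to 36.9) and 12.2 in the younger (10.6 to 14.0), against 19.8 in the older wild type (18.0 to 21.8) and 10.3 in the younger (9.01 to 11.7). The 2-month libraries were the low ones, and their intervals overlapped. The ratio of 8 to 2 months was 2.83 in knockouts (2.42 to 3.31) and 1.93 in wild type (1.64 to 2.27). Between genotypes it was 1.74 in favour of the knockout at 8 months (1.54 to 1.96) and 1.19 at 2 months, where the interval of 0.980 to 1.44 includes 1.

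Hba-a1, the more abundant alpha globin (ENSMUSG00000069919, chromosome 11, 32283511 to 32284465, plus strand), had 363 counts in the knockout at 8 months and 136 in the knockout at 2 months, against 267 in the wild type at 8 months and 90 in the wild type at 2 months. Scaled, that was 15.5 CPM in the older knockout (14.0 to 17.2) and 7.90 in the younger (6.63 to 9.34), against 12.6 in the older wild type (11.1 to 14.2) and 3.92 in the younger (3.15 to 4.82). Its libraries stood in the same order as those of Hbb-bs, but the steps differed. Knockout over wild type, Hba-a1 was closer at 8 months, with a ratio of 1.23 (1.05 to 1.45), and further apart at 2 months, with 2.01 (1.53 to 2.66). The ratio of 8 to 2 months was 1.97 in knockouts (1.61 to 2.41) and 3.22 in wild type (2.52 to 4.13).

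The second copies were minor. Hbb-bt (ENSMUSG00000073940, chromosome 7, 103812524 to 103813996, minus strand) had 99 counts in the knockout at 8 months and 22 in the knockout at 2 months, against 48 in the wild type at 8 months and 14 in the wild type at 2 months. Hba-a2 (ENSMUSG00000069917, chromosome 11, 32296489 to 32297298, plus strand) had 42 counts in the knockout at 8 months and 8 in the knockout at 2 months, against 18 in the wild type at 8 months and 9 in the wild type at 2 months. Between neighbours in the order of levels of Hba-a2, only the top step had an interval above 1. It was 2.12 between the knockout and the wild type at 8 months (1.19 to 3.91). The ratio of 8 to 2 months for Hba-a2 was 3.87 in knockouts (1.79 to 9.54) and 2.17 in wild type (0.925 to 5.48). The copies share sequence: of the 50-base stretches of their GENCODE M21 exons, 72.3% of those of Hba-a1 and 89.3% of those of Hba-a2 occur in the other alpha gene, and 53.2% of those of Hbb-bs and 58.3% of those of Hbb-bt in the other beta gene. No source used here says how the counting assigned such reads, so the split within a pair is uncertain.

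Summing each pair removes that split, but it would not recover shared reads if the counting dropped them. Such a loss could differ between the pairs, since the alpha genes share more of their stretches, and it was not tested. The alpha pair made up 30.9% of globin counts in the knockout at 8 months (28.4 to 33.5) and 38.3% in the knockout at 2 months (33.4 to 43.4), against 37.8% in the wild type at 8 months (34.4 to 41.4) and 28.4% in the wild type at 2 months (23.7 to 33.4). The share was thus high in the younger knockout and the older wild type and low in the other two. Knockout over wild type, the alpha pair had a ratio of 1.29 at 8 months (1.10 to 1.51) and 1.94 at 2 months (1.49 to 2.53). The beta pair had 1.75 at 8 months (1.57 to 1.96) and 1.24 at 2 months (1.03 to 1.49). Within the pairs, Hba-a1 took 89.6% to 94.4% of alpha counts and Hbb-bs 89.0% to 94.4% of beta counts.

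In the test over all 4 libraries, which fits genotype and age as additive effects with edgeR's quasi-likelihood method, no globin passed an adjusted p of 0.05. The age effect, 8 over 2 months, was a log2 difference of 1.24 ± 0.30 for Hbb-bs (SE, edgeR adjusted p = 0.139) and 1.34 ± 0.39 for Hba-a1 (SE, edgeR adjusted p = 0.290). The genotype effect, knockout over wild type, was 0.53 ± 0.29 for Hbb-bs (SE, edgeR adjusted p = 0.650) and 0.65 ± 0.38 for Hba-a1 (SE, edgeR adjusted p = 0.656). Of all 13906 genes tested, 0.0288% were called for genotype and 0.23% for age, against 0 of the 8 genes tested here for either effect; DESeq2 called 0 of the 8 as well. At an unadjusted p under 0.05 stood 4 of the 8 for age (Hba-a1, Hbb-bs, Hbb-bt and Sptb), against 1143 of all genes, and 1 of the 8 for genotype (Sptb), against 1162 of all genes. With genes under a mean of 5 CPM left out of the fit, the age effect of Hbb-bs reached an edgeR adjusted p of 0.0132, in a setting that called 1.25% of all genes for age, and with no filter 0.0156, in one that called 0.926%. Leaving out 1 library dropped genotype from the age fit, which then compared a lone library with 2 of the other age. Only effect sizes are therefore given for these fits. Without the wild type library at 8 months, the log2 age effects of the 4 globins and Sptb lay between 1.40 and 2.31, in a setting that called 23.4% of all genes. Without the knockout library at 8 months, those of the same genes lay between 0.34 and 1.29, in a setting that called 4.95%. They lay between 1.40 and 2.40 without the knockout at 2 months, and between 0.83 and 1.49 without the wild type at 2 months.

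Counted at 2-fold with a prior count of 2, among the 12133 genes that reached 2 CPM in some library, 6 of the 9 genes were present: Hba-a1, Hbb-bs, Hbb-bt, Klf1, Gata1 and Sptb. Hbb-bt reached the level only in the 8-month libraries and Klf1 only in the older wild type library, so a difference in that direction had to be there and the counts are a description. At 8 over 2 months, 4 of the 6 were higher by 2-fold in knockouts (Hbb-bs, Hbb-bt, Gata1 and Sptb), where 10.3% of all genes were. In wild type 3 of the 6 were (Hba-a1, Hbb-bt and Klf1), where 3.29% of all genes were. Knockout over wild type, Sptb alone was higher by 2-fold, at 8 months, where 10.4% of all genes were, and at 2 months, where 0.923% were. None was lower by 2-fold in any of the 4 comparisons, where 6.47% of all genes were for knockout over wild type at 8 months, 2.08% at 2 months, 4.71% for 8 over 2 months in knockouts and 2.77% in wild type. All 6 were higher at 8 months in both genotypes by some amount, as were 24.8% of all genes. Hbb-bt was so by 2-fold in both, as were 1.53%, and Sptb was higher by 2-fold in knockouts at both ages, as were 0.519%. In the same 6 genes the median log2 fold was 1.30 for 8 over 2 months in knockouts and 1.16 in wild type, and over all genes -0.04 and -0.02. For knockout over wild type it was 0.55 at 8 months and 0.60 at 2 months, and over all genes 0.00 and -0.01. The comparisons share libraries and are not independent of one another.

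**Figure D2:**
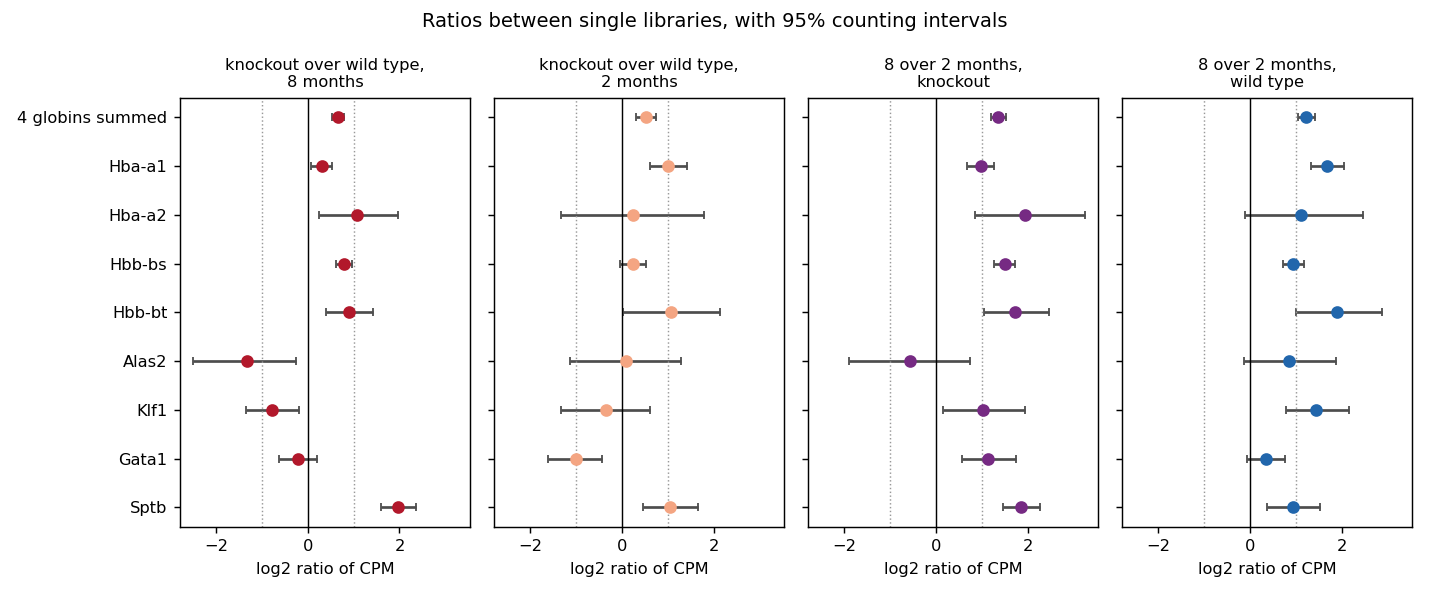
Log2 ratio of scaled CPM between single libraries, 1 panel per comparison, knockout over wild type at 8 and at 2 months and 8 over 2 months in knockout and in wild type; points are plain ratios, bars exact 95% counting intervals, the solid line marks no difference and dotted lines 2-fold. The globin sum lies right of the line in all 4 panels, and Sptb is the gene furthest right at 8 months, with a ratio of 3.91.

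Sptb encodes beta spectrin of the red cell skeleton, a chain of the lattice under the membrane that binds ankyrin; it lies on chromosome 12, 76580488 to 76710547, minus strand (ENSMUSG00000021061). It had 315 counts in the knockout at 8 months and 64 in the knockout at 2 months, against 73 in the wild type at 8 months and 41 in the wild type at 2 months. Scaled, that was 13.5 CPM in the older knockout (12.0 to 15.1) and 3.72 in the younger (2.86 to 4.75), against 3.45 in the older wild type (2.70 to 4.33) and 1.79 in the younger (1.28 to 2.42). The knockout library at 8 months stood clear above the rest, and the next pair, the younger knockout and the older wild type, overlapped, with a ratio of 1.08 (0.759 to 1.53). Between knockout and wild type the ratio was 3.91 at 8 months (3.03 to 5.12) and 2.08 at 2 months (1.38 to 3.16). At 8 over 2 months it was 3.63 in knockouts (2.77 to 4.82) and 1.93 in wild type (1.30 to 2.90). The fitted genotype effect was a log2 difference of 1.54 ± 0.49 (SE, edgeR adjusted p = 0.505). Over the other scalings, filters, a gene length offset and DESeq2, the edgeR or DESeq2 adjusted p lay between 0.115 and 0.876. The upper end came with the gene length offset, where the log2 difference was 1.15. The fitted age effect was 1.43 ± 0.49 (SE, edgeR adjusted p = 0.381). Without the knockout library at 8 months the log2 differences were 0.51 for genotype and 0.34 for age, each fitted with the other factor dropped. Matched within those libraries, the log2 ratio of knockout to wild type at 2 months was 1.06. That of 8 to 2 months in wild type was 0.95.

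Sptb is a long transcript of 10394 bases in the deposited table. The 435 genes of 8000 to 13000 bases were themselves higher in the knockouts, their median log2 fold being 0.44 in the older and 0.30 in the younger pair of libraries, and 15.9% of them were 2-fold higher in the knockout at 8 months. For Sptb itself the log2 ratio in those pairs was 1.97 and 1.06. Per base Sptb was less abundant than each of the globins there: its deposited FPKM, which divides by length, was 1.49 in the knockout at 8 months, where that of Hbb-bs was 50.9, that of Hba-a1 25.5, that of Hbb-bt 6.92 and that of Hba-a2 3.73. In the authors' deposited table, Sptb at 8 months was the 1 comparison of these 9 genes with a significance mark, with a log2 fold of 1.97 and an adjusted p of 0.00178. That comparison, knockout over wild type at 8 months, marked 596 of all 35275 genes. Knockout over wild type at 2 months marked 5. Between ages, 311 genes were marked in knockouts and 231 in wild type. The authors' deposited table also gives adjusted p values of 0.00699 for Sptb and 0.0306 for Hbb-bs between ages in knockouts, and 0.0227 for Hba-a1 between ages in wild type. None of those met the mark's limit of 0.005. Among the other spectrin chains, Sptan1, the alpha chain of non-erythroid spectrin, was at 244.3 CPM in the knockout at 8 months and 377.2 CPM in the knockout at 2 months, against 273.2 CPM in the wild type at 8 months and 279.2 CPM in the wild type at 2 months. Of the 9 other spectrin, ankyrin and adducin genes, 8 were tested and none passed for genotype or age.

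The genes whose profile over the 4 libraries lay closest to that of Sptb, among 11404 genes, were Fam131a, Gm11739 and Chad, at distances of 0.246, 0.280 and 0.288 on the log2 scale. Fam131a had 113 counts in the knockout at 8 months and 22 in the knockout at 2 months, against 26 in the wild type at 8 months and 17 in the wild type at 2 months. For Hbb-bs the closest were Gm14085, Ighv7-3 and Gm13807, at distances of 0.0995, 0.110 and 0.171. Gm14085 had 5422 counts in the knockout at 8 months and 1308 in the knockout at 2 months, against 2708 in the wild type at 8 months and 1598 in the wild type at 2 months. The genes described here were not candidates in this search, though some are counted in the 11404, so the globins and Sptb could not appear as neighbours of each other. None of these 6 is a gene of the other lists of red cell genes used here.

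The heme enzyme and the transcription factors did not have the order of the globins. All 3 were highest in the wild type at 8 months, as were 6110 of all 21501 genes with a count. With library size alone, however, Gata1 was higher in the older knockout than in the older wild type, by 0.04 on the log2 scale. Klf1, the activator of adult beta globin (ENSMUSG00000054191, chromosome 8, 84901928 to 84905295, plus strand), had 44 counts in the knockout at 8 months and 16 in the knockout at 2 months, against 68 in the wild type at 8 months and 27 in the wild type at 2 months. Like the globins it was higher at 8 than at 2 months in both genotypes, with ratios of 2.03 in knockouts (1.12 to 3.85) and 2.73 in wild type (1.72 to 4.44). Unlike them it was lower in the knockout than in the wild type at 8 months, with a ratio of 0.587 (0.392 to 0.870). At 2 months the ratio was 0.790 (0.398 to 1.52).

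Gata1, the zinc finger factor that red cells share with megakaryocytes, mast cells, basophils and eosinophils (ENSMUSG00000031162, chromosome X, 7959260 to 7978071, minus strand), had 102 counts in the knockout at 8 months and 34 in the knockout at 2 months, against 107 in the wild type at 8 months and 91 in the wild type at 2 months. The younger knockout was the low library and the other 3 had overlapping intervals. The ratio of knockout to wild type was 0.498 at 2 months (0.326 to 0.746) and 0.865 at 8 months (0.653 to 1.14). Alas2, which catalyses the first step of heme synthesis in red cell precursors (ENSMUSG00000025270, chromosome X, 150547375 to 150570638, plus strand), had 11 counts in the knockout at 8 months and 12 in the knockout at 2 months, against 25 in the wild type at 8 months and 15 in the wild type at 2 months. No neighbours in its order differed beyond counting error, and the ratio of knockout to wild type at 8 months was 0.399 (0.177 to 0.841). Its exons share 311 bases with Apex2 on the opposite strand, and whether counting used strand is not given, so these few reads may belong to either gene. Both genes are X-linked, and the wild type library at 2 months is the one with Xist; the part of this in their values was not tested.

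For these 3 genes the fitted genotype effects were negative and none passed: -0.56 ± 0.67 for Klf1 (SE, edgeR adjusted p = 0.826), -0.59 ± 0.53 for Gata1 (SE, edgeR adjusted p = 0.775) and -0.62 ± 0.87 for Alas2 (SE, edgeR adjusted p = 0.859). Slc4a1, the band 3 anion exchanger and a main protein of the red cell membrane (ENSMUSG00000006574, chromosome 11, 102348824 to 102366203, minus strand), had 0 counts in all 4 libraries. A count of 0 allows up to 3 counts, or 0.128 CPM in the knockout at 8 months, 0.174 CPM in the knockout at 2 months, 0.142 CPM in the wild type at 8 months and 0.131 CPM in the wild type at 2 months. Its deposited length is 4545 bases and none of the 50-base stretches of its exons occurs in another gene. Rhag and Epb42, other genes of the same membrane, had 17 and 12 counts in the knockout at 8 months, so the 0 for Slc4a1 is to be read with caution; its cause was not tested.

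The remaining genes of red cell membranes were sparse but for a few that many cells use. Of 18 listed, 17 had a count, and 14 of the 17 were highest in the knockout library at 8 months, as were 34.3% of all genes with a count. The most abundant 3 were not among those 14: Epb41, Mpp1 and Slc2a1, whose levels were 207.8, 56.0 and 125.3 CPM in the knockout at 8 months. In the fit 11 of the 18 were tested and none passed, and their median log2 difference was 0.72 for genotype and 0.76 for age. The following were chosen after their values were seen. Rhag, of the Rh complex, had 17 counts in the knockout at 8 months and 0 in the knockout at 2 months, against 2 in the wild type at 8 months and 1 in the wild type at 2 months. Ermap, an erythroblast membrane protein, had 51 counts in the knockout at 8 months and 3 in the knockout at 2 months, against 13 in the wild type at 8 months and 1 in the wild type at 2 months. Both had nearly all of their counts in the 8-month libraries and most in the knockout. Knockout over wild type at 8 months, the ratio was 7.71 for Rhag (1.83 to 68.8) and 3.56 for Ermap (1.91 to 7.13). Between ages in knockouts, the level of Rhag at 8 months was 4.18 times the limit of 3 counts in the younger library. That figure leaves out the counting error of the 17 counts.

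**Figure D3:**
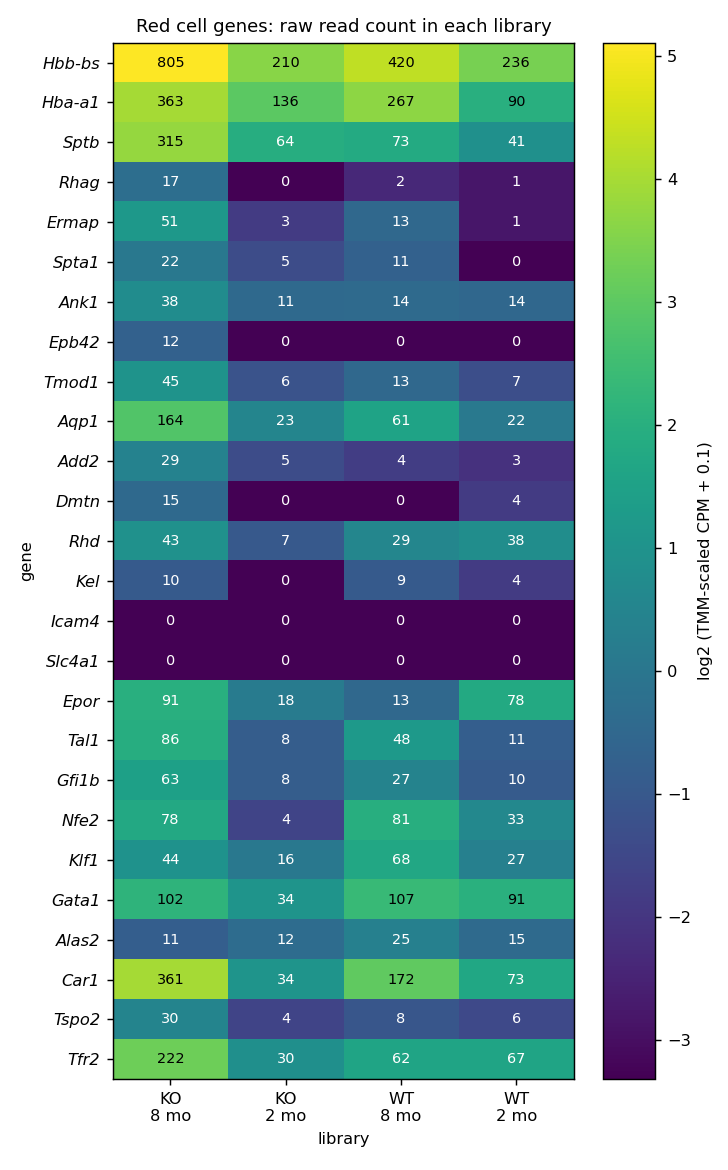
Raw counts (printed in each cell) and level (colour, log2 of scaled CPM plus 0.1) of 26 red cell genes, in rows, in the 4 libraries, in columns, with the knockout at 8 months on the left and the wild type at 2 months on the right. Rhag, Ermap and Aqp1 have most counts in the left column, and Slc4a1 and Icam4 have none in any column.

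Of 15 other erythroid transcription factors and partners, 14 were tested and none passed for genotype or age, and their median log2 difference was -0.09 for genotype and 0.14 for age. The most abundant, Ldb1, Tcf3 and E2f2, are used in many cells, and Ldb1 was at 262.8 CPM in the knockout at 8 months and 200.5 CPM in the knockout at 2 months, against 237.8 CPM in the wild type at 8 months and 235.0 CPM in the wild type at 2 months. E2f2 was at 87.6 CPM in the knockout at 8 months and 180.7 CPM in the knockout at 2 months, against 192.4 CPM in the wild type at 8 months and 182.7 CPM in the wild type at 2 months. Of the 15, 3 were highest in the knockout and 8 in the wild type at 8 months, against 7372 and 6110 of all 21501 genes with a count. Chosen after its values were seen, Tal1, a partner of GATA1, had 86 counts in the knockout at 8 months and 8 in the knockout at 2 months, against 48 in the wild type at 8 months and 11 in the wild type at 2 months. Its ratio of 8 to 2 months was 7.92 in knockouts (3.85 to 18.9) and 4.73 in wild type (2.42 to 10.1). Gata2, the GATA factor of blood progenitors and mast cells, had 297 counts in the knockout at 8 months and 26 in the knockout at 2 months, against 320 in the wild type at 8 months and 125 in the wild type at 2 months. Its age effect had an edgeR adjusted p of 0.0646. Gata3, the GATA factor of T cells, had 557 and 543 counts in the older and younger knockout, against 722 and 736 in the older and younger wild type.

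The pathways that feed hemoglobin were described in the same way. The 8 other heme synthesis genes summed to 272.6 CPM in the knockout at 8 months and 283.7 CPM in the knockout at 2 months, against 311.3 CPM in the wild type at 8 months and 281.4 CPM in the wild type at 2 months. None of the 8 passed for either effect, and Urod, which acts late in the pathway, was at 42.2, 49.5, 41.5 and 43.9 CPM in the same order. Of 15 iron and heme transport genes 14 were tested and none passed. Highest in the knockout at 8 months were 8 of the 15, as were 34.3% of all genes with a count. Tfrc, the transferrin receptor that dividing cells use, was at 161.1 CPM in the knockout at 8 months and 241.2 CPM in the knockout at 2 months, against 224.5 CPM in the wild type at 8 months and 178.1 CPM in the wild type at 2 months. Chosen after their values were seen, Slc25a37, the mitochondrial iron importer mitoferrin, and Tfr2, a second transferrin receptor, were highest in the older knockout. Slc25a37 had 2497 counts in the knockout at 8 months and 747 in the knockout at 2 months, against 1225 in the wild type at 8 months and 1077 in the wild type at 2 months. Tfr2 had 222 counts in the knockout at 8 months and 30 in the knockout at 2 months, against 62 in the wild type at 8 months and 67 in the wild type at 2 months. Of the 6 embryonic and other globin genes, Hba-x, Hbb-bh1, Hbb-bh2 and Hbq1b had 0 counts, and Hbb-y and Hbq1a had 1 count each, both in a knockout library.

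Of the other red cell enzymes and the erythropoietin receptor, 7 of the 11 genes found in the table were tested, and none passed for genotype or age. Car1, the carbonic anhydrase of red cells, chosen after its values were seen, had 361 counts in the knockout at 8 months and 34 in the knockout at 2 months, against 172 in the wild type at 8 months and 73 in the wild type at 2 months. Its ratio of knockout to wild type was 1.90 at 8 months (1.58 to 2.30) and 0.621 at 2 months (0.401 to 0.945), so the direction differed between the ages in these libraries. Prdx2, an abundant antioxidant enzyme of red and other cells, was at 125.1 CPM in the knockout at 8 months and 134.5 CPM in the knockout at 2 months, against 135.0 CPM in the wild type at 8 months and 151.2 CPM in the wild type at 2 months.

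Relatives of the other members were compared as well. Of the other SLC4 transporters 5 of 8 were tested and none passed. Slc4a8, a bicarbonate transporter named among the most abundant 3 of that list, had 836 counts in the knockout at 8 months and 220 in the knockout at 2 months, against 194 in the wild type at 8 months and 305 in the wild type at 2 months. Of 15 other KLF factors 11 were tested and none passed. Klf2, a factor of resting T cells, was at 88.3 CPM in the knockout at 8 months and 189.4 CPM in the knockout at 2 months, against 275.1 CPM in the wild type at 8 months and 164.4 CPM in the wild type at 2 months.

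Markers of other blood cells also differed between the libraries, and their part in the values above was not tested. Of the 14 platelet and megakaryocyte markers 9 were tested and none passed. They summed to 149.3 CPM in the knockout at 8 months and 133.7 CPM in the knockout at 2 months, against 138.0 CPM in the wild type at 8 months and 132.2 CPM in the wild type at 2 months, most of it from Itgb3. Without Itgb3, left out after its values were seen, the sums were 42.1, 6.33, 35.8 and 12.5 CPM in the same order. Pf4, platelet factor 4, had 252 counts in the knockout at 8 months and 19 in the knockout at 2 months, against 197 in the wild type at 8 months and 60 in the wild type at 2 months. Of the 17 mast cell, basophil and eosinophil markers 10 were tested, and Mcpt8, Prss34 and Prg2 rose with age, with edgeR adjusted p of 0.0349, 0.00367 and 0.0308. The list summed to 52.8 CPM in the knockout at 8 months and 52.1 CPM in the knockout at 2 months, against 135.3 CPM in the wild type at 8 months and 44.8 CPM in the wild type at 2 months, and Tpsb2 and Tpsab1 were at 0. Without Kit, also left out after its values were seen, the sums were 25.3 CPM in the older and 8.88 CPM in the younger knockout, against 72.0 CPM in the older and 13.3 CPM in the younger wild type.

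The 13 neutrophil markers summed to 10.6 CPM in the knockout at 8 months and 0.755 CPM in the knockout at 2 months, against 114.7 CPM in the wild type at 8 months and 3.27 CPM in the wild type at 2 months. Of the 8 tested, S100a8, S100a9, Lcn2 and Mmp8 rose with age and S100a8 and S100a9 fell with genotype, all past an edgeR adjusted p of 0.05. The 11 red pulp macrophage markers, of cells that clear old red cells, summed to 14.1 CPM in the knockout at 8 months and 8.36 CPM in the knockout at 2 months, against 42.2 CPM in the wild type at 8 months and 14.7 CPM in the wild type at 2 months. Of these 4 were tested and none passed. The summed levels of both lists were highest in the wild type at 8 months, and that of the globins in the knockout at 8 months. The 10 B cell markers summed to 1383.5 CPM in the knockout at 8 months and 2079.2 CPM in the knockout at 2 months, against 3454.9 CPM in the wild type at 8 months and 2403.1 CPM in the wild type at 2 months. The 12 T cell markers summed to 2867.9 CPM in the knockout at 8 months and 3916.3 CPM in the knockout at 2 months, against 3530.2 CPM in the wild type at 8 months and 3898.6 CPM in the wild type at 2 months. None of the B or T cell markers passed for either effect.

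**Figure D4:**
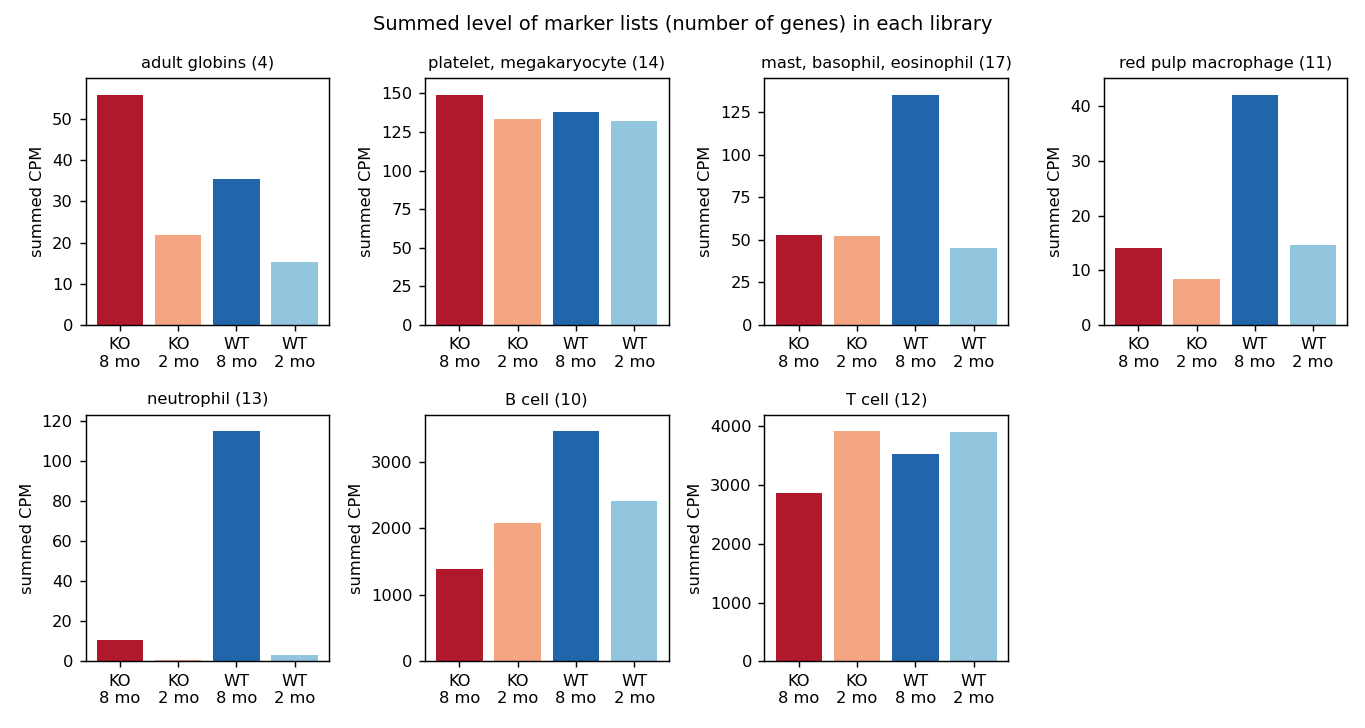
Summed scaled CPM of the 4 adult globins and of 6 lists of cell type markers, 1 panel per list with the number of genes and its own axis from 0; bars are single libraries, in the order knockout at 8 months, knockout at 2 months, then wild type at 8 months and at 2 months, with no error bars. The globin panel peaks in the knockout at 8 months, and the panels of granulocytes, macrophages and B cells peak in the wild type at 8 months.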

How the data were processed

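RNA of activated T cells was measured in 4 libraries, 1 per group, grouped by the labels. CASAVA, STAR, GRCm38 and mm10 are named in the submitters' processing notes; the counting tool, annotation and strandedness are not given in those sources. The deposited table gives, per the file headers, raw counts per gene, the authors' FPKM, and the authors' log2 fold changes and p-values; a score per library and comparison, deposited by the authors on a scale not stated, was not used. There were 27 symbols turned into dates, restored by identifier. Of the 35275 genes, 13774 had no count.

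Counts were scaled with TMM factors and tested with edgeR 4.0.16 (R 4.3.3) quasi-likelihood on 13906 genes past filterByExpr, with genotype and age as additive terms and Benjamini-Hochberg adjustment over all genes at 0.05. This leaves 1 residual degree of freedom, so a genotype effect that differs between ages counts as spread, and p-values rest on single libraries that stand in for replicates. The fitted biological coefficient of variation was 0.267. Ratios of 2 libraries carry exact conditional binomial intervals, levels exact Poisson intervals and shares Clopper-Pearson intervals (scipy 1.17.1), all at 95%; reads are not independent molecules, so these and the limit of 3 counts cover counting error only. The 2-fold counts use log2 CPM after adding a prior count of 2.

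The genes and lists were chosen with earlier results of these data known. Named were all 9 genes, the up to 3 most abundant genes of each other list, any listed gene past a test, and the 3 nearest profiles; others are said to be chosen later. Alternatives were other size factors, other filters, a gene length offset (mgcv 1.9.3), DESeq2 1.42.0, other prior counts and each library left out.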

Additional observations from a re-analysis of the deposited data

Results flagged for a closer look

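Epor, the erythropoietin receptor gene, differed by at least 2-fold in opposite directions at the 2 ages and in the 2 genotypes. It had 91 counts in the knockout library at 8 months and 18 in the knockout at 2 months, against 13 in the wild type at 8 months and 78 in the wild type at 2 months. The log2 ratio of knockout to wild type was 2.67 at 8 months and -1.70 at 2 months, and that of 8 to 2 months was 1.90 in knockouts and -2.47 in wild type. The plain ratios were 6.35 (3.53 to 12.4), 0.308 (0.173 to 0.519), 3.73 (2.23 to 6.57) and 0.181 (0.0921 to 0.327), with 95% counting intervals. Ank3, an ankyrin gene of non-erythroid cells, had 2 counts in the knockout at 8 months and 10 in the knockout at 2 months, against 24 in the wild type at 8 months and 10 in the wild type at 2 months. Its log2 ratio of 8 to 2 months was -2.76 in knockouts and 1.38 in wild type. For both genes the difference between the groups was not tested, since each group is 1 library.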

How the results depend on the processing

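No paired analysis was possible because each group has 1 library and the labels give no replicate numbers. The number of genes called for genotype, 4 as fitted, was 0 with library size alone (938 at an unadjusted p under 0.05), 135 with no filter, 101 with a filter at a mean of 5 CPM, 8 with a gene length offset and 18 with DESeq2. For age, 32 as fitted, it was 20 with median-of-ratios size factors, 0 with library size alone (807 at an unadjusted p under 0.05), 199 with no filter, 126 with the filter at 5 CPM and 60 with DESeq2. Leaving out 1 library gave 0 to 472 for genotype, lowest without the knockout at 8 months and highest without the knockout at 2 months, and 0 to 3447 for age, lowest without the wild type at 2 months and highest without the wild type at 8 months; the other factor was then dropped and the lone library assumed to vary like the rest. Among the 9 genes no genotype effect was called under any setting. The age effect of Hbb-bs passed with no filter (edgeR adjusted p = 0.0156) and at 5 CPM (edgeR adjusted p = 0.0132). Leaving out libraries, the genotype effect ranged over -0.11 to 1.58 for Hba-a1, -0.41 to 1.53 for Hba-a2, -0.30 to 1.19 for Hbb-bs, -0.16 to 2.17 for Hbb-bt, -1.23 to 0.27 for Klf1, -1.18 to -0.05 for Gata1 and 0.51 to 2.36 for Sptb, and the age effect over -0.52 to 0.81 for Alas2 and 0.34 to 2.31 for Sptb, with both lower ends of Sptb reached without the knockout at 8 months. The globin reversals came without the knockout at 8 months, and for Hba-a1 (-0.06 there) also without the wild type at 2 months (-0.11). Library size alone moved the median of all genes by 0.24 for knockout over wild type at 8 months and by 0.27 for 8 over 2 months in knockouts, and the globin sum to a log2 ratio of 0.90 and 1.63, against 0.66 and 1.36 as scaled. The cause of these moves was not tested. Sparse counts limit Alas2, Hba-a2 and the red cell membrane genes, whose intervals are wide.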
